A study of Homo sapiens with 17 samples.

Results

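The eCLIP libraries of AIFM1 were set against the size-matched input of AIFM1 through all peaks deposited for both replicates. There were 12042 peaks in replicate 1 and 31722 in replicate 2, which are 43764 of the 389788 peaks of the 11 eCLIP libraries. Peaks of 1 strand that overlapped by 1 nt or more were merged, which gave 38302 regions, of which 38211 were nuclear and 91 mitochondrial. The cells were 293T, a human embryonic kidney line, irradiated on the plate with 400 mJ per square cm of 254 nm light. The groups used here were AIFM1 eCLIP (2 replicates), the eCLIP libraries of NUMA1, RANGAP1, VIM and ZNF184 (2 each) and RNF219 (1), and the input of AIFM1 (1), which served both AIFM1 replicates. All groups were the same untreated line, with no genotype or agent that set them apart, and a window reaching 75 kDa above each protein was cut from the membrane. The design text names the replicates biological without saying how they were grown, so the spread between them may be partly technical.

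AIFM1 is a flavin-binding oxidoreductase held at the inner membrane of mitochondria, where it takes part in the import and assembly of respiratory chain proteins. In dying cells it can leave mitochondria and move to the nucleus, where it binds DNA. In eCLIP, ultraviolet light joins a protein to the RNA it touches, an antibody pulls the protein down and the attached RNA fragments are sequenced. The size-matched input skips the antibody and takes RNA of that gel window as a whole. Both strands of mitochondrial DNA are copied from end to end into long transcripts, and the rRNAs and nearly all mRNAs come from the transcript that reads along the plus strand.

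Positions are those of the build hg19, which the submitters' processing notes name. Nuclear and mitochondrial mean the chromosome of the deposited peak. Whether reads at a nuclear region could also map to the mitochondrial chromosome was not checked. No annotation of hg19 was used, so regions are given by chromosome, position and strand, and no gene, exon or intron is named for them. For the same reason the defining genes of 293T cells and the lists of genes chosen for AIFM1 could not be checked against the peaks, and no sequence is shown.

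Each peak carries the authors' -log10 p and the authors' log2 fold over input. A peak is called significant here when its -log10 p and its log2 fold (8-fold enrichment) both reach 3. The ratio of input depth to eCLIP depth, worked out from the steps between the deposited folds, was 1.22 for AIFM1 replicate 1 and 0.534 for AIFM1 replicate 2. Beside 1 input read, a peak therefore needed 12 eCLIP reads to be significant in replicate 1 and 23 in replicate 2. In the other libraries the same number was between 5 and 18. Read numbers can hold PCR copies, and an input of 0 cannot be told from an input of 1, so intervals given with them cover counting error only.

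AIFM1 peaks were narrow and held few reads. The median width was 36 nt in replicate 1 and 34 nt in replicate 2, and the median log2 fold was 1.17 and 0.68. Above input were 10614 peaks of replicate 1 (88.1%) and 25368 of replicate 2 (80.0%). Read numbers were settled for 78.6% of replicate 1 peaks, with a median of 4 eCLIP reads, and for 45.2% of replicate 2 peaks, with a median of 6. For the others only the least number that gives the fold is known. Exactly 3 eCLIP reads beside 1 input read stood behind 2509 peaks of replicate 1. In replicate 2 this was the least that gives the fold of 6966 peaks, none of them settled. At the other end, 29 peaks of replicate 1 (0.241%) and 100 of replicate 2 (0.315%) had a log2 fold of -3 or lower, of which 3 and 0 were mitochondrial. Nuclear peaks fell about evenly on the strands, with 6006 plus and 5959 minus in replicate 1 and 16031 plus and 15574 minus in replicate 2. Chromosome 19 held the most peaks in replicate 1 (1253, 10.4%) and chromosome 1 in replicate 2 (3590, 11.3%).

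Significant peaks numbered 26 in replicate 1, which is 0.216% of its peaks, and 68 in replicate 2, which is 0.214%. They lay in 19 regions of replicate 1 and 55 of replicate 2, and 13 regions were significant in both. These 13 are 0.268% of the 4856 regions in which both replicates had a peak. The shared regions made up 41.1% of the regions of replicate 1 and 15.5% of those of replicate 2. Mitochondrial regions were shared more often: 60 of 91 (65.9%), against 4796 of 38211 nuclear regions (12.6%). This difference in shares was not tested.

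Within the shared regions the replicates ordered their folds alike. Spearman's rho across regions was 0.739 for the nuclear regions (n = 4796) and 0.901 for the mitochondrial ones (n = 60), given as a description, since both replicates were divided by 1 common input. Of the nuclear shared regions, 3342 were above input in both replicates and 618 below in both. Of the mitochondrial ones, 45 were above in both and 10 below in both. Replicate 2 had the higher fold in 45 of 60 mitochondrial regions and in 1571 of 4796 nuclear regions. The median nuclear fold was thus lower in replicate 2, at 0.68 on the log2 scale against 0.87 in replicate 1, while the median mitochondrial fold was higher, at 1.34 against 1.05.

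**Figure D1:**
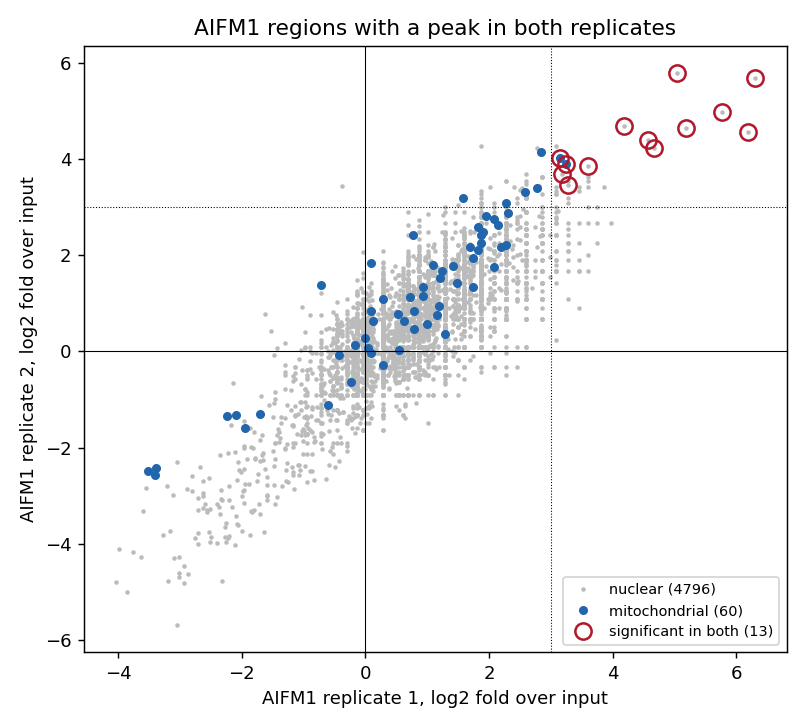
Each point is a region with an AIFM1 peak in both replicates, placed by its highest log2 fold over input in replicate 1 (horizontal) and replicate 2 (vertical). Grey points are the 4796 nuclear regions, blue points the 60 mitochondrial regions, red rings the 13 regions significant in both, solid lines mark input level and dotted lines a log2 fold of 3.

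Of the 13 reproducible regions, 11 were nuclear (7 plus, 4 minus) and 2 mitochondrial. Their selection used the folds over input, so those folds are a description. The highest, at 18965398 to 18965452 on the plus strand of chromosome 17, reached 6.30 in replicate 1 and 5.69 in replicate 2 on the log2 scale. Replicate 2 had 678 eCLIP reads beside 7 input reads there, with a 95% Clopper-Pearson interval of 4.64 to 7.01.

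The second by mean was that of chromosome 2 (230045637 to 230045716, minus strand). It had 27 eCLIP reads beside 1 input read in replicate 1, a log2 fold of 5.04, and at least 103 beside 1 in replicate 2, a log2 fold of 5.78. A single input read leaves the fold wide open, as its interval in replicate 1 shows, from 2.44 to 10.39. A neighbouring stretch on the same strand (230045574 to 230045624) reached 3.60 in replicate 1, from 10 reads beside 1, and 3.62 in replicate 2, from 23 beside 1, and was significant in replicate 2 alone.

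Further regions resting on 1 input read in both replicates lay on chromosome 6 (31958259 to 31958279, plus strand; 5.77 and 4.98), chromosome 2 (219824447 to 219824480, plus strand; 6.19 and 4.56), chromosome 4 (13544061 to 13544098, minus strand; 5.19 and 4.65), chromosome 11 (77597616 to 77597689, plus strand; 4.67 and 4.23) and chromosome 5 (79947046 to 79947091, minus strand; 4.19 and 4.68). From 15 to at least 60 eCLIP reads stood behind each of these values. The largest gap between replicates was that of 219824447 to 219824480, with a mean of 5.37 ± 1.15 (SD, n = 2).

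The other 4 nuclear regions had more than 1 input read in at least 1 replicate. They lay on chromosome 6 (10887833 to 10887859, plus strand; 4.57 and 4.40), chromosome 11 (16863807 to 16863885, plus strand; 3.60 and 3.85), chromosome 12 (20704345 to 20704448, plus strand; 3.19 and 3.70) and chromosome 5 (6848534 to 6848576, minus strand; 3.28 and 3.47). The widest was that of chromosome 12, at 104 nt, and the narrowest of all 13 was that of 31958259 to 31958279, at 21 nt.

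The mitochondrial regions had 20 or more input reads behind each value. At 922 to 970 on the plus strand the log2 folds were 3.15 and 4.03, and replicate 1 had 234 eCLIP reads beside 32 input reads (interval 2.61 to 3.73). At 5829 to 5858 on the minus strand they were 3.25 and 3.90, from 157 and 558 eCLIP reads, each beside 20 input reads. The intervals of the replicates overlap there, since that of replicate 1 starts at 2.58 and that of replicate 2 runs from 3.26 to 4.62.

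The AIFM1 regions were set beside the other proteins, each over its own input. At 31958259 to 31958279 all 9 other libraries were significant, with log2 folds of 3.66 to 7.48, and 7 of them were above both AIFM1 values. At 18965398 to 18965452 the 8 libraries that had a peak were all significant and all above AIFM1, at 6.43 to 8.93. Other libraries were also above both AIFM1 values at 13544061 to 13544098 (4 of 6 with a peak, up to 8.20). So they were at 219824447 to 219824480 (3 of 6, up to 8.34) and at 10887833 to 10887859 (4 of 9, up to 8.19). The same held at 5829 to 5858 on the mitochondrial chromosome (3 of 9) and at 77597616 to 77597689 (2 of 8, up to 6.19). It also held at 6848534 to 6848576 (2 of 6, up to 4.59) and at 16863807 to 16863885 (1 of 9, at 5.31). At 230045637 to 230045716 none of 8 libraries was above both AIFM1 values (2.38 to 5.52), though VIM, at 5.44 and 5.52, was above AIFM1 replicate 1, and at 79947046 to 79947091 none of 9 was (1.36 to 3.96). The region 20704345 to 20704448 was significant in no other library, with 1 of 9, VIM replicate 2 at 3.71, just above the AIFM1 values of 3.19 and 3.70.

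The mitochondrial region 922 to 970 split the libraries. AIFM1 had 3.15 and 4.03, RNF219 had 4.62, NUMA1 had 2.86 and 2.61, and the other 6 libraries lay between -0.81 and 0.48. RNF219 was the only other library significant there. The region 5829 to 5858 was above input in all 9 other libraries (2.61 to 5.64), 5 of them significant. By library, between 3 (RNF219) and 10 (VIM replicate 2) of the 13 AIFM1 regions were significant elsewhere. The share of all peaks that were significant in the other libraries was not counted, so these numbers have no background share. Beside 1 input read, a call needed 18 eCLIP reads in RNF219 but 5 and 6 in the VIM replicates. The numbers are therefore a description, and the part of depth was not tested. Inputs differ between proteins, so protein and input cannot be told apart in these comparisons.

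**Figure D2:**
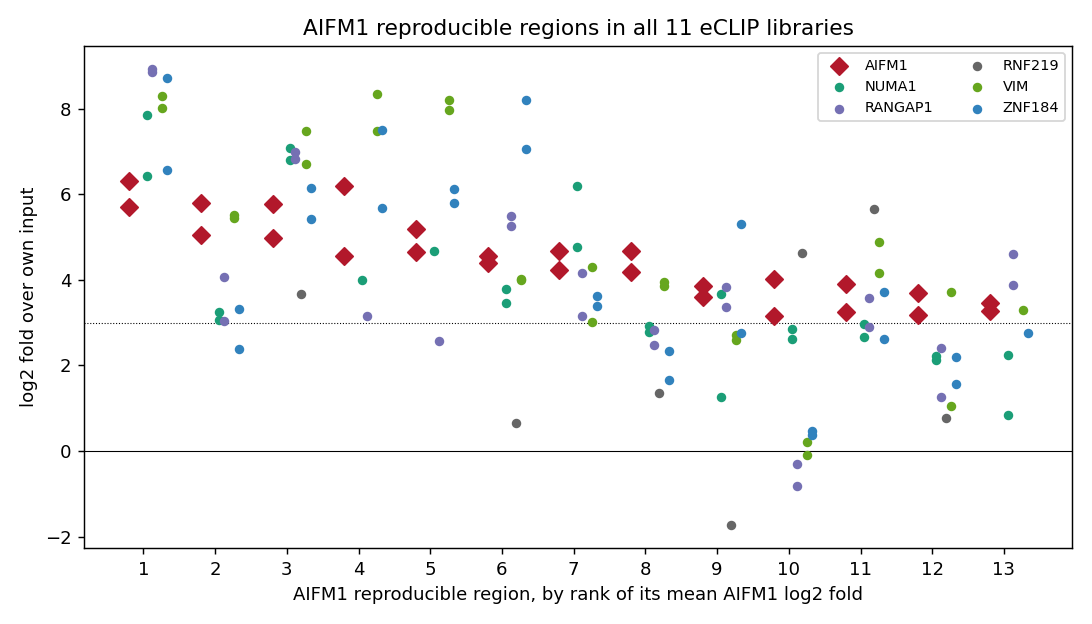
The 13 AIFM1 reproducible regions run left to right by rank of their mean AIFM1 log2 fold, and the vertical axis is the highest log2 fold over each library's own input. Red diamonds are the AIFM1 replicates, coloured dots the other proteins, and the dotted line a log2 fold of 3; libraries without a peak have no dot. Region 8, at 4.19 and 4.68, has both AIFM1 values above every other library.

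AIFM1 peaks were then counted at the reproducible regions of other proteins. Of 64 NUMA1 regions, 20 had an AIFM1 replicate 1 peak (31.2%, median log2 fold 2.95) and 26 a replicate 2 peak (40.6%, 2.44), and 9 were significant in each. Of 171 VIM regions, 109 and 130 had an AIFM1 peak (63.7% and 76.0%), with medians of 0.77 and 0.83, and 10 and 13 were significant. Of 341 RANGAP1 regions, 133 and 204 had one (39.0% and 59.8%), with medians of 1.28 and 0.74, and 7 and 9 were significant. Of 550 ZNF184 regions, 173 and 228 had one (31.5% and 41.5%), with medians of 1.28 and 1.10, and 12 and 14 were significant. Over all AIFM1 peaks, 0.216% were significant in replicate 1 and 0.214% in replicate 2, counted by peak and not by region. How often any region of these proteins held an AIFM1 peak was not counted. The overlaps therefore have no background share and are a description.

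Regions significant in 1 replicate were usually above input in the other where it had a peak. Most deposited peaks were above input in any case (88.1% in replicate 1, 80.0% in replicate 2), and both replicates were divided by 1 input. Of the 42 significant in replicate 2 alone, 18 had no replicate 1 peak. Some of these 18 adjoin, as those on chromosome 1 from 204531632 to 204531639 (minus strand) do. In the other 24 the replicate 1 median log2 fold was 2.59, 23 were above input and 20 were at 2 or more. All 6 regions significant in replicate 1 alone had a replicate 2 peak, with log2 folds between 2.00 and 3.42. One region on chromosome 14 (107092684 to 107092723, plus strand) went against this, with -0.37 in replicate 1 and 3.44 in replicate 2. These values come from peaks that do not overlap, at 107092684 to 107092713 and at 107092721 to 107092723. The adjoining region 107092724 to 107092729 had 2.80 in replicate 1 and 3.44 in replicate 2.

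Among peaks with a -log10 p of at least 3, the lowest log2 fold inside the threshold was 3.09 in replicate 1, from 14 eCLIP reads beside 2 input reads on chromosome 14 (21860342 to 21860413, minus strand). The highest outside it, among the same peaks, was 2.83, from 229 beside 39 on the mitochondrial chromosome (1328 to 1379, plus strand). In replicate 2 the values, with the same limit on p, were 3.00 inside (chromosome 8, 37557176 to 37557218, plus strand) and 2.95 outside (chromosome 5, 79947237 to 79947314, minus strand). Peaks that missed on p alone reached a log2 fold of 3.74 in replicate 1, from 11 eCLIP reads beside 1 input read at a -log10 p of 2.73, and 3.49 in replicate 2, from 21 beside 1 at 2.87.

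On the mitochondrial chromosome AIFM1 had 77 peaks in replicate 1 and 117 in replicate 2, of which 72 and 112 were on the plus strand. Significant were 2 (2.60%) and 16 (13.7%), against 0.201% and 0.165% of nuclear peaks. A call needed at least 12 and 23 eCLIP reads beside 1 input read, while settled peaks held a median of 4 and 6. Nuclear and mitochondrial peaks were not matched for reads, so these shares are a description and the part of depth was not tested. Among the 16 of replicate 2, 10 lay between 616 and 1385 on the plus strand, at log2 folds of 3.55 to 4.18. Several of them adjoin, as those from 1272 to 1385 do, so they are not separate sites. The replicate 1 peaks in that stretch were lower, at 2.30 to 3.15, and all were above input.

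Cut into 16 segments of 1000 nt by position, the plus strand gave a profile that both AIFM1 replicates shared in part. Median log2 folds were above input in both replicates in 13 segments, below in both in 2 and on opposite sides in 1. Of all deposited AIFM1 peaks, 88.1% in replicate 1 and 80.0% in replicate 2 were above input. A majority above input is therefore not particular to these segments. Over the whole plus strand the median was 0.93 in replicate 1 and 1.24 in replicate 2, against nuclear medians of 1.17 and 0.68. The first segment (1 to 1000) was the highest, with medians of 2.75 (3 peaks) and 3.66 (6 peaks). The second (1001 to 2000) was the lowest, with -1.63 (18 peaks) and -0.91 (24 peaks).

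The second segment held peaks on both sides of input. Up to position 1478 every AIFM1 peak in it was above input, at 0.56 to 2.83 in replicate 1 and 2.10 to 4.16 in replicate 2. Next came a peak near input, at 0.09 in replicate 1 (1624 to 1650) and 0.85 in replicate 2 (1618 to 1651). From 1707 every peak was below input, up to 1933 in replicate 1 and up to 1927 in replicate 2. The lowest had -3.52 in replicate 1 (1712 to 1715) and -2.56 in replicate 2 (1749 to 1784). Just beyond, replicate 1 was above input again at 1934 to 1938, with 1.74. Replicate 2 had 1.39 at 1928 to 1933 and 1.95 at 1934 to 1937. The replicates thus differed at 1928 to 1933, which the replicate 1 peak at 1913 to 1933 covers with -0.71. Within the third segment, peaks from 2213 to 2302 were again below input in both replicates, at -2.78 to -2.24 in replicate 1 and -2.62 to -1.34 in replicate 2. Close by, the peak at 2532 to 2567 in replicate 2 had 3.32, and its counterpart in replicate 1 (2533 to 2566) had 2.58. Peaks below input carry a -log10 p of 0 in the deposited lists, so the low stretches are described and not called.

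In segment 7 (6001 to 7000) every AIFM1 peak was above input, and none lay beyond 6605. Its 6 replicate 1 peaks ran from 1.24 to 2.78 and its 10 replicate 2 peaks from 1.68 to 3.39. The medians of 1.95 and 2.39 were above those of all 9 other libraries, of which RNF219 was highest at 1.44 and RANGAP1 lowest at -0.75 and -0.81. Segment 15 (14001 to 15000) did the same on 1 and 2 AIFM1 peaks, at 2.28 and 1.56, with RNF219 at 1.46. In all, both AIFM1 replicates were above every other library in 2 of 16 segments, and in 11 of 16 when RNF219 was left out. RNF219 was above input in 15 segments, AIFM1 in 14 and 13, and the other 8 libraries in 0 to 5. The segments were laid out after the data were seen and were not tested.

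**Figure D3:**
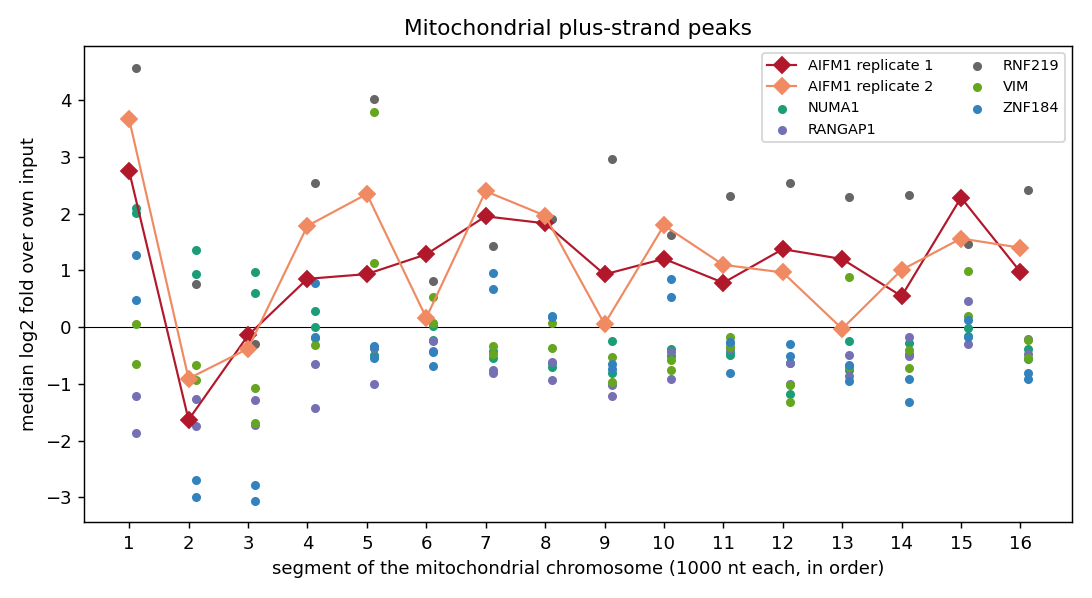
The median log2 fold over each library's own input (vertical) of plus-strand mitochondrial peaks is plotted for 16 consecutive segments of 1000 nt (horizontal). Red and orange diamonds joined by lines are AIFM1 replicates 1 and 2, and dots the other proteins. Both AIFM1 lines are highest in segment 1, at 2.75 and 3.66, and below input in segments 2 and 3.

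The minus strand had 5 AIFM1 peaks in each replicate. Apart from the region at 5829 to 5858, these lay between 14256 and 14441 (3 in each replicate, -0.33 to 1.09 and -0.47 to 1.80) and near 15960 to 15989 (0.09 and 1.85). The peak at 15960 to 15989 in replicate 2 rested on 54 eCLIP reads beside 8 input reads.

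Whether AIFM1 stood apart from the other libraries on the mitochondrial chromosome was asked for 3 measures with exact, 2-sided permutation tests, in which any 2 of the 11 libraries could take the place of AIFM1 (55 choices). The smallest p this design allows is 0.0182. Libraries of 1 protein share an antibody target and an input, so the 11 libraries are not independent and these p-values are too small. With the protein as the unit, 6 proteins would allow no p below 0.167. The share of deposited peaks averaged 0.504% ± 0.191 in AIFM1 (SD, n = 2) and 0.468% ± 0.227 in the others (SD, n = 9), with an exact p of 0.818 (adjusted over the 3 tests, 0.818). The plus-strand share was 93.5% and 95.7% in AIFM1 and 95.7% ± 1.22 in the others (SD, n = 9), with an exact p of 0.309 (adjusted 0.464).

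The plus-strand median minus the minus-strand median was 0.84 and -0.56 in AIFM1, against -3.20 to 0.11 in the others. The AIFM1 mean was 0.14 ± 0.99 (SD, n = 2) and that of the others -1.17 ± 0.98 (SD, n = 9), with an exact p of 0.145 (adjusted 0.436). Limited to peaks of 10 or more recovered input reads, the difference in mitochondrial share was 3.30 percentage points, with an exact p of 0.0545. For unsettled peaks the recovered number is only the least that gives the fold, and for some mitochondrial peaks it is missing. This limit is therefore approximate. AIFM1 overlapped other libraries in all 3 measures, and its replicates lay on either side of 0 in the last one. With the mean of folds in place of the median the difference was 1.39, with an exact p of 0.0182 over libraries, to which the same limit applies.

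**Figure D4:**
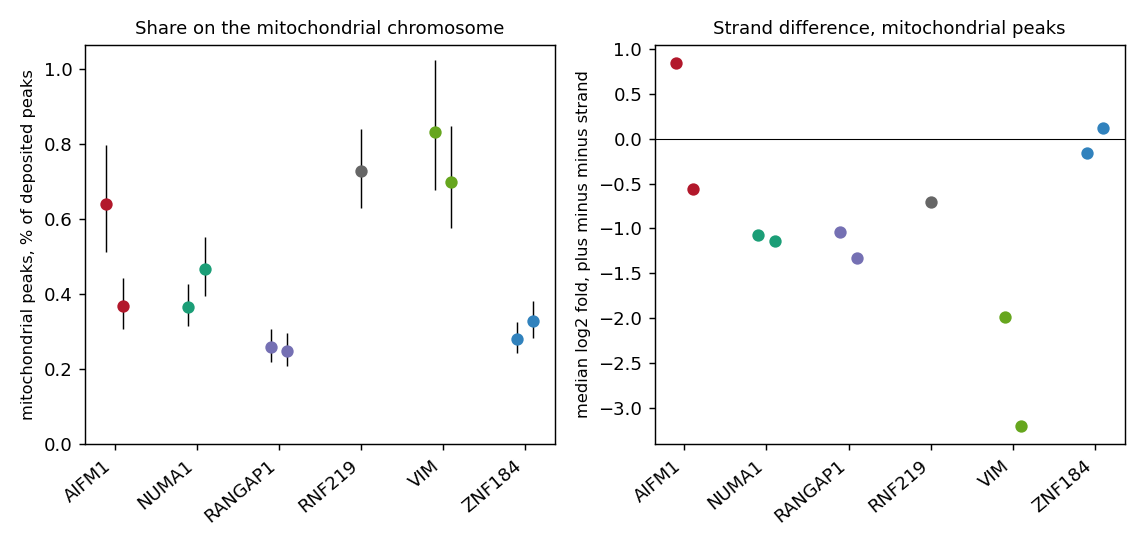
On the left, the mitochondrial share of deposited peaks in percent, with 95% Wilson intervals as bars, and on the right the median log2 fold of plus-strand minus that of minus-strand mitochondrial peaks. Each dot is a library, AIFM1 in red. AIFM1 lies at 0.639% and 0.369% on the left and at 0.84 and -0.56 on the right.

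Nuclear peaks of AIFM1 also gathered in runs, defined, after the data were seen, as regions of 1 strand with gaps of at most 1000 nt and at least 4 peaks of each replicate. There were 288 such runs. By the median log2 fold of their peaks, 236 were above input in both replicates, 19 below in both and 33 on neither side in common. Of all deposited peaks, 88.1% in replicate 1 and 80.0% in replicate 2 were above input. Of the 4796 shared nuclear regions, 3342 were above in both, so a majority above input is not particular to runs. The replicate medians had a Spearman's rho of 0.390 across runs, a description on a shared input.

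The 10 highest runs were chosen by their AIFM1 means. The first, on chromosome 5 (79946599 to 79947314, minus strand), spanned the reproducible region 79947046 to 79947091. It had medians of 2.60 (4 peaks) and 3.70 (5 peaks), and 1 and 4 of its peaks were significant. In the other libraries its median ran from -2.83 to 3.86, with 6 of 9 above input. The second, on chromosome 2 (133012227 to 133013271, minus strand), had 2.41 and 2.52, and all 9 other libraries were above input there (0.30 to 2.80).

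Values follow at 3 further high runs in which the median of the other libraries was below input. The run on chromosome 2 (55459822 to 55461274, plus strand) had 2.18 and 2.00 in AIFM1, and the other libraries had a median of -0.47. RNF219, at 1.99, and ZNF184, at 1.22 and 1.89, were above input there. The run on chromosome 1 (8922952 to 8924120, minus strand) had 1.98 and 1.95 in AIFM1, against at most 0.86 in the 7 libraries with peaks. The run on chromosome 9 (19378431 to 19380232, minus strand) had 1.80 and 2.61, against -1.23 to 1.57 in 9 libraries. None of the peaks in these 3 runs was significant. These runs do not stand for all the high runs. On chromosome 16 (28876774 to 28878741, plus strand) 8 of 9 other libraries were above input. VIM replicate 1, at 2.27, was above both AIFM1 values (1.87 and 2.00) there. Another chromosome 16 run (2806335 to 2809027, plus strand) had 7 of 9 above input. On chromosome 19 it was 4 of 4 at 50366994 to 50368386 (minus strand). It was 5 of 9 at 54704731 to 54706084 and 4 of 9 at 5690295 to 5691645 (plus strand).

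In each of the 10 lowest runs at most 3 of the other libraries were above input. Both ZNF184 libraries were among these in some runs, as at 8704346 to 8707112 on chromosome 11 (1.55 and 0.85). In other runs both were below input, as at 20811283 to 20811570 on chromosome 14 (-4.35 and -2.02). The lowest run, on chromosome 17 (7478030 to 7478166, plus strand), spanned 137 nt with medians of -2.24 (4 peaks) and -3.87 (5 peaks). All 9 other libraries were below input there (-2.44 to -0.49). The run on chromosome 14 (20811283 to 20811570, minus strand) had -2.20 (13 peaks) and -2.60 (10 peaks), and 1 of 9 others was above input. The run on chromosome 11 (8704346 to 8707112, plus strand) held 15 peaks in each replicate, with medians of -2.16 and -3.39 but highest peaks of 2.98 and 1.97, so peaks above and below input lay within the same run.

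**Figure D5:**
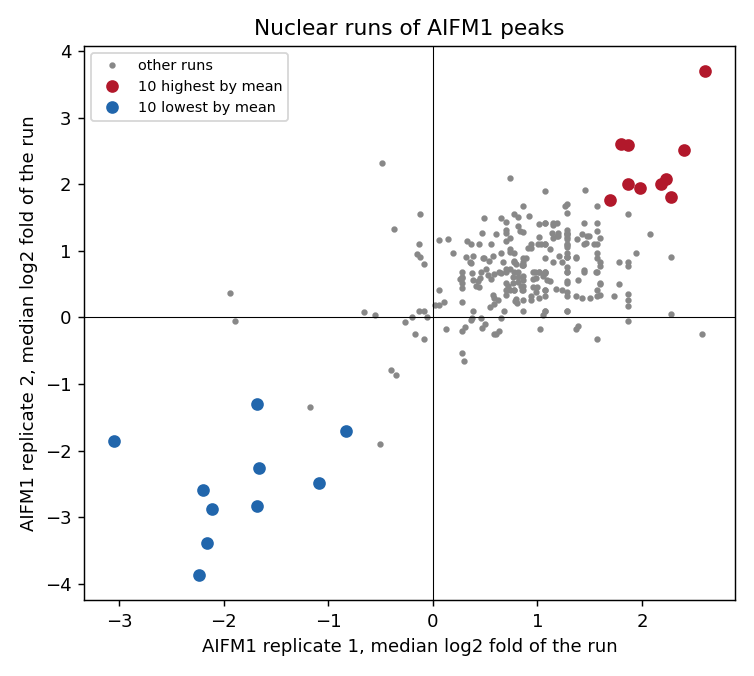
Each point is 1 of the 288 nuclear runs of AIFM1 peaks, placed by its median log2 fold over input in replicate 1 (horizontal) and replicate 2 (vertical). Red points are the 10 highest and blue points the 10 lowest by mean, chosen on these values. Of all runs, 236 lie above input in both replicates and 19 below in both. Of the 4796 shared nuclear regions, 3342 were above input in both. Counted by peak within a replicate, 88.1% and 80.0% of all deposited peaks were above input.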

How the data were processed

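The authors deposited 1 peak list per eCLIP library, with no header. Each list gives the -log10 p-value and the log2 fold over the size-matched input, deposited as the authors made them. Per the submitters' processing notes, cutadapt, STAR, GATK, Picard and SAMtools were used on hg19, without versions, while the sources used here do not give the peak caller. Read numbers were recovered from the steps between folds, with settings chosen on these lists; the p-values computed from them matched the deposited ones (within 0.005 in -log10 p, or 3% past saturation) for 98.9% to 99.9% of testable peaks. Recovery and permutation were tested on simulated data. Peaks were merged with Python 3.11.15, pandas 2.3.3 and SciPy 1.17.1. The rule for what is named covers every reproducible region, the leading and significant mitochondrial peaks and those beside the threshold, and runs and segments were added later. The members, lists and tests were chosen with earlier results of these data known. A table of another build (GRCh38) was at first laid over the files to name mitochondrial genes, and 3 contrasts between gene groups were computed on it. They were dropped because the builds differ and are not reported.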

Additional observations from a re-analysis of the deposited data

How the results depend on the processing

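Counts moved with the threshold. At a log2 fold of at least 4 there were 13 and 26 significant peaks and 8 reproducible regions, and at 2 there were 56 and 162 peaks and 35 regions. A -log10 p of at least 5, an overlap of at least 0.5 of the shorter peak and merging without regard to strand kept the 13 regions within 1.5 times (11 to 13). For the mitochondrial share the difference was 3.30 percentage points (exact p 0.0545) among peaks with at least 10 recovered input reads. That number is a least value for unsettled peaks and is missing for some, so the limit is approximate. With all peaks the difference turned to -0.10 percentage points without replicate 1 and was 0.17 without replicate 2. For the plus-strand share the difference turned to 11.1 percentage points among peaks above input, and leaving out a replicate gave -2.20 to 0.0197, reversed without replicate 1. For the strand difference in log2 fold, leaving out a replicate gave 0.61 to 2.01, and means in place of medians gave 1.39 with an exact p of 0.0182 over libraries, which are not independent within a protein. The replicate block (1 library of each number, 30 choices) left these differences at 0.04, -1.09 and 1.31, with exact p of 0.867, 0.367 and 0.167; the numbers name libraries and do not pair proteins. Runs were an alternative added after seeing the data. In the main setting 236 of 288 were above input in both replicates and 19 below. With gaps of at most 500 nt, 138 of 177 were above and 15 below. With at least 3 peaks of each replicate, 488 of 605 were above and 41 below. The intronic share and the share of small structured RNAs were not run, since both need an annotation of the build. The cause of these changes was not tested.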
